A study of Rattus norvegicus with 13 samples.

Results

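The genes that move calcium in and out of the contractile space of the heart muscle cell were followed in the left ventricle of pregnant rats. The group held 8 genes, Cacna1c, Ryr2, Fkbp1b, Casq2, Atp2a2, Pln, S100a1 and Slc8a1. Its members were all probe sets whose only gene symbol was one of these names, which gave 18 of the 31042 probe sets tested, and the 8 genes stood among 14217 genes with such a probe set. Atp2a2 had 5 probe sets and Pln had 3. Ryr2, Casq2, Slc8a1 and Cacna1c each had a pair, and Fkbp1b and S100a1 had 1 each. Each gene was read first by its brightest probe set, the one with the highest mean log2 signal over all arrays, and the other 10 probe sets served as a check.

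RNA from 13 left ventricles was hybridized to Affymetrix rat genome arrays, 1 array per sample. All donors were pregnant Sprague Dawley females, whose age the labels do not give. The 5 control rats drank plain water. The 4 methionine-fed rats (Met-fed) had 9 g/L L-methionine and the 4 L-NAME-fed rats (L-NAME) had 1 g/L L-NAME added to their water. The water was given on gestation days 1 to 20, and hearts were taken at day 20 or 21. L-methionine loading was the study's model of raised homocysteine, and L-NAME, an inhibitor of nitric oxide synthases, its model of restricted nitric oxide. These times are those of the labels. The paper describes multiparous rats given methionine from their first pregnancy until death, counts fewer control arrays than the labels do, and does not describe the L-NAME arrays in its text. All arrays labelled control were used. No label states that a replicate was a separate litter or cage, so p-values measure the spread between these samples.

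In each heartbeat, calcium enters through the L-type channel, whose pore is encoded by Cacna1c, and opens the ryanodine receptor Ryr2, which releases the larger store held in the sarcoplasmic reticulum. Fkbp1b encodes the small immunophilin calstabin that binds Ryr2, and Casq2 encodes calsequestrin, the calcium-binding protein that buffers the store beside it. Relaxation follows when the pump SERCA, encoded by Atp2a2, returns calcium to the store under the brake of phospholamban (Pln) and with the help of S100a1, while the sodium-calcium exchanger Slc8a1 carries the rest out of the cell.

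The arrays differed between groups beyond these genes, and the values below should be read beside that. Signals were scaled by the authors to a common trimmed mean, yet the median signal of all probe sets was 25.7 to 27.2 on control, 25.8 to 29.2 on Met-fed and 34.2 to 36.9 on L-NAME arrays. The actin 3′ over 5′ probe set difference was 3.47 ± 0.14 log2 units in control (SD, n = 5), 3.53 ± 0.17 in Met-fed (SD, n = 4) and 2.48 ± 0.16 in L-NAME (SD, n = 4; exact permutation test against control, 2-sided, p = 0.00794, the smallest this design can give). The same difference for GAPDH was 1.18 ± 0.11, 1.12 ± 0.15 and 0.56 ± 0.09. Added spike-in transcripts read lower on L-NAME arrays as well, with a mean log2 signal of 9.91 ± 0.07 against 10.32 ± 0.10 in control. Markers bore out heart muscle, since 6 of 7 listed cardiomyocyte genes were measured and their mean log2 signal was at least 10.84 over all arrays. Their summed signal was 20654 to 22944 in control, 16339 to 23565 in Met-fed and 13694 to 15643 in L-NAME. Listed atrial genes were measured too, with sums of 1020 to 2372 in control, 1361 to 6634 in Met-fed and 1301 to 3841 in L-NAME. The share of atrial tissue in the samples was not tested. In whole tissue, fewer cells of a type and less RNA per cell cannot be told apart. The part of these measures in the results was not tested.

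In L-NAME hearts the brightest probe sets of the calcium release, storage and reuptake genes fell, while the channel gene Cacna1c rose. Atp2a2 was 1.65-fold lower than in control, Pln 1.55-fold, Ryr2 1.54-fold, Casq2 1.53-fold and S100a1 1.42-fold, whereas Cacna1c was 1.55-fold higher. Slc8a1 differed from control by less than the spread between arrays, and Fkbp1b did not pass the test. In all, 6 of 8 genes were called at an adjusted p under 0.05 (limma, Benjamini-Hochberg over all probe sets), 1 higher and 5 lower, against 45.7% of all probe sets called, 28.7% higher and 17% lower. Atp2a2, Pln, Ryr2 and Casq2 lay between 11 and 12 log2 units, where 91.5% of 318 probe sets were called lower. Of the brightest probe sets, 6 of 8 did not overlap between the groups, against 40.3% of all probe sets. Dimmer probe sets of the same genes did not all follow: of the other 10, 7 were called, of which 5 were higher and 2 lower.

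**Figure D1:**
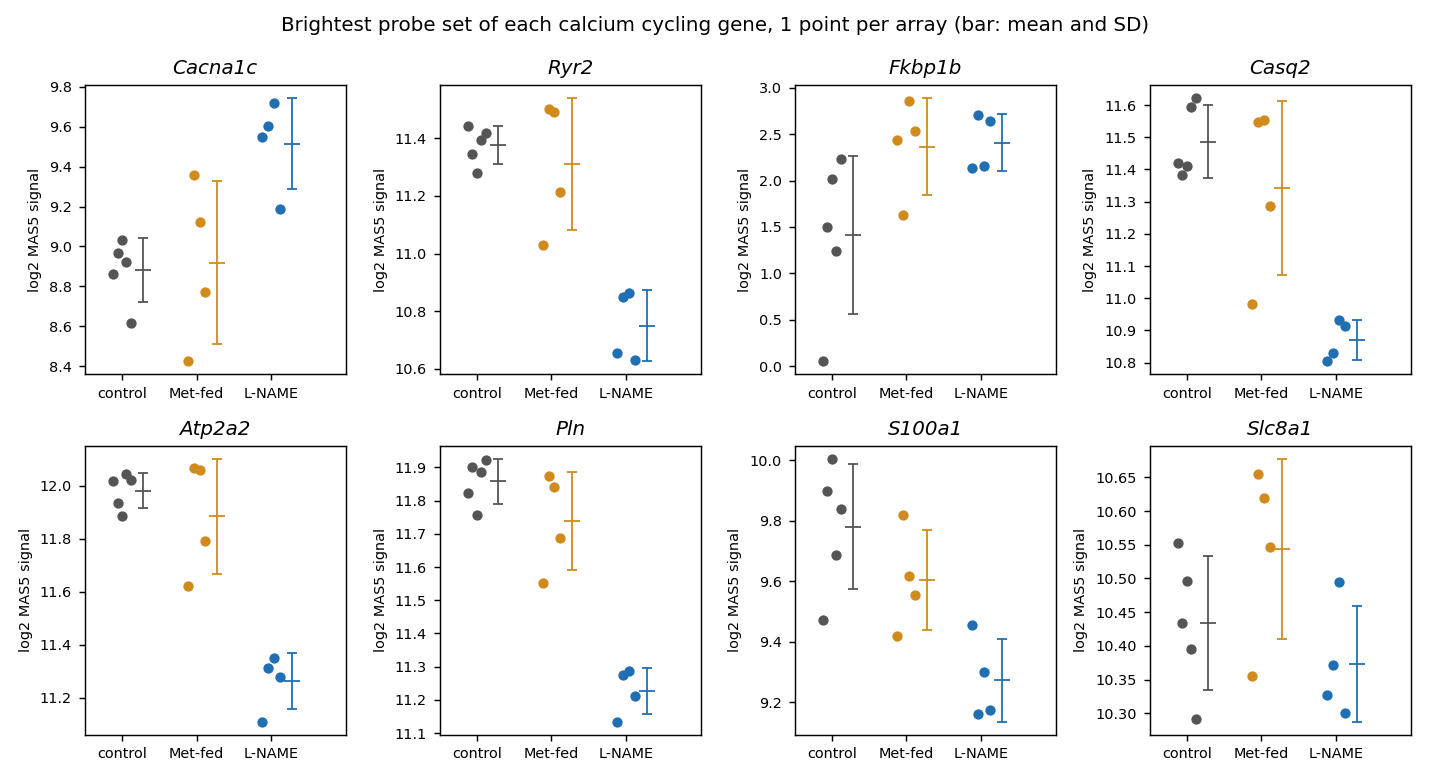
Log2 MAS5 signal of the brightest probe set of each of the 8 genes on each array, for control (n = 5), Met-fed (n = 4) and L-NAME (n = 4), with the group mean and SD beside the points; each panel has its own vertical scale, which does not start at 0. L-NAME arrays lie below every other array for Ryr2, Casq2, Atp2a2 and Pln, above every control array for Cacna1c, and among the others for Slc8a1.

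Promoters are shown for the 4 genes whose brightest probe sets lay between 11 and 12 log2 units and were called lower in L-NAME. This fall was not particular to them, since 91.5% of the 318 probe sets in that signal range were called lower. Dimmer probe sets of Atp2a2, Ryr2 and Casq2 were called higher. RefSeq promoter windows of 300 bases, 250 before and 50 after the start in the table, were matched by symbol for 7 of the 8 members on build GRCr8. S100a1 had no entry. Atp2a2 lies at chr12:39733269-39733568, Ryr2 at chr17:63081277-63081576, Pln at chr20:33172244-33172543 and Casq2 at chr2:192214306-192214605, all on the plus strand. Each is printed 5′ to 3′, and capitals mark the GC box, the CCAAT box and the MEF2 motif on either strand.
Atp2a2: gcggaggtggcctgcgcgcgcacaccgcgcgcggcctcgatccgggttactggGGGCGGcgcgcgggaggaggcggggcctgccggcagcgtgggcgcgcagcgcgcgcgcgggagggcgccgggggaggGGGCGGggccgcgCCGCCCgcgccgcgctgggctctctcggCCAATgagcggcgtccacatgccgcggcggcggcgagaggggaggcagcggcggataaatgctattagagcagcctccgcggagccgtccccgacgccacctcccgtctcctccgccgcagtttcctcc
Ryr2: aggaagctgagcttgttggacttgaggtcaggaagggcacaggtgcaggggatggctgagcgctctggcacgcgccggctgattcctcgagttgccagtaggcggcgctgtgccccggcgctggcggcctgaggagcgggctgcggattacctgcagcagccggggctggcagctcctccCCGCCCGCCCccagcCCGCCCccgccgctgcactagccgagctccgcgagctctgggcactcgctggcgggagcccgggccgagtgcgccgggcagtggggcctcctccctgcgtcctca
Pln: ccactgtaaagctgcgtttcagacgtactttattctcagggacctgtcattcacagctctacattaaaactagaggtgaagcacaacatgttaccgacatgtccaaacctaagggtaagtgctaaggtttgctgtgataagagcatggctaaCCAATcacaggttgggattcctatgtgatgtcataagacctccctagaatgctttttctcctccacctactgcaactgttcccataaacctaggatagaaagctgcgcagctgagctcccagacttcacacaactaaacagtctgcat
Casq2: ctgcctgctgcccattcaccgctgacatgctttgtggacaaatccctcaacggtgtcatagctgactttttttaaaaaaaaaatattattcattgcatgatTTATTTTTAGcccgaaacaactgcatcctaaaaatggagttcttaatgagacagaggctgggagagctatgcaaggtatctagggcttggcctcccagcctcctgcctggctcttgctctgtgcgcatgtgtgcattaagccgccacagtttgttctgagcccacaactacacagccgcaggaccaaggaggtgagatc

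These 4 windows had little in common. Atp2a2 and Ryr2 each held 3 copies of the GC box GGGCGG, a pair of which share letters in Ryr2, while Pln and Casq2 held none. Of the other members Fkbp1b held 2, and 33.1% of 33469 promoters of the same length held at least 1. The CCAAT motif stood once in Atp2a2 and once in Pln, as in 37.5% of all promoters. The MEF2 motif, named for muscle transcription factors, was found once in Casq2 and in none of the other 6 members, against 3.29% of all promoters. The E-box (CANNTG) was present in all 4, in a single copy in Atp2a2 and Ryr2 and in 2 copies in Pln and Casq2, and 72.1% of all promoters held it. Neither TATAAA (14.2% of all promoters) nor AGATAA (11.6%) was found in any of the 7 windows. GC content was 79.0% for Atp2a2, 73.0% for Ryr2, 45% for Pln and 47.7% for Casq2, beside a median of 51.7% over all promoters. A match describes the letters of the window and not a bound site, and which start is used in these hearts was not tested.

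Calcium entry was read from Cacna1c, the pore of the L-type channel. Its brightest probe set (1370452_at) read 8.86, 8.97, 9.03, 8.92 and 8.62 log2 units in the 5 control hearts, 8.43, 9.36, 9.12 and 8.77 in Met-fed and 9.55, 9.60, 9.72 and 9.19 in L-NAME. Every L-NAME heart was above every control heart, and 1 Met-fed heart lay within the L-NAME range. The difference from control was 0.63 ± 0.16 log2 units (SE; adjusted p = 0.00341; exact permutation p = 0.00794). The second Cacna1c probe set (1370451_a_at), near the bottom of the signal range, differed in the same direction by 0.85 ± 0.34 (adjusted p = 0.0486) with overlapping groups. Both probe sets were higher under every scaling tried, but the brightest was not called after centring each array on its median (0.21), and the second was called on neither that scale (0.42) nor after quantile normalization (0.37).

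Release was read from Ryr2, and its probe sets moved in opposite directions. The brightest (1382088_at) read 11.44, 11.34, 11.28, 11.39 and 11.42 in control, 11.03, 11.50, 11.49 and 11.21 in Met-fed and 10.66, 10.85, 10.86 and 10.63 in L-NAME. All 4 L-NAME hearts were below all 9 other hearts. The difference from control was -0.63 ± 0.09 log2 units (SE; adjusted p = 3.46e-05). The second Ryr2 probe set (1382775_at) read 7.27, 6.96, 6.40, 6.54 and 6.12 in control, 7.01, 7.23, 6.78 and 6.58 in Met-fed and 8.76, 9.09, 8.60 and 8.25 in L-NAME. Here all 4 L-NAME hearts were above all 9 others, by 2.02 ± 0.22 log2 units or 4.06-fold against control (adjusted p = 1.45e-06). Both directions held under quantile normalization, median centring and spike-in centring, with -0.22 to -1.05 for the first and 1.60 to 2.42 for the second.

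The Ryr2 partner Fkbp1b lay near the bottom of the signal range. Its only probe set (1370132_at) exceeded the highest of the 27 bacterial control probe sets, which mark the level of unbound signal, on 9 of 13 arrays. It read 0.06, 1.50, 2.01, 1.24 and 2.24 in control, 2.44, 1.63, 2.86 and 2.54 in Met-fed and 2.14, 2.70, 2.16 and 2.64 in L-NAME. The groups overlapped, and the L-NAME difference of 1.00 ± 0.46 log2 units against control did not pass the test (adjusted p = 0.0909), although it did after spike-in centring (1.40). Fkbp1a, the close paralog that skeletal muscle uses, read 10.43 to 10.62 in L-NAME and 10.59 to 10.75 in control, a difference of -0.16 ± 0.07 (adjusted p = 0.0548), and its direction turned after quantile normalization (0.15) and spike-in centring (0.24). A second Fkbp1a probe set was called lower (-1.16 ± 0.09), and the third was not called (0.14 ± 0.11).

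The calcium store was read from Casq2, which also split. Its brightest probe set (1368988_at) read 11.42, 11.38, 11.41, 11.60 and 11.62 in control, 10.98, 11.55, 11.55 and 11.29 in Met-fed and 10.81, 10.83, 10.93 and 10.91 in L-NAME. The L-NAME hearts were below all others, the nearest being Met-fed replicate 1, and the difference from control was -0.62 ± 0.10 log2 units (SE; adjusted p = 9.71e-05). The second probe set (1387401_at) read 7.78, 7.81, 8.38, 8.35 and 8.22 in control, 7.43, 8.50, 8.31 and 8.52 in Met-fed and 9.70, 9.67, 9.90 and 9.72 in L-NAME. The L-NAME hearts were the highest there, by 1.64 ± 0.19 log2 units or 3.11-fold (adjusted p = 3.8e-06). The first stayed lower (-0.18 to -1.04) and the second higher (1.21 to 2.04) under the 3 other scalings, and all of these values were called.

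Reuptake was read from Atp2a2, the SERCA pump, on 5 probe sets. The brightest (1369065_a_at) read 12.02, 11.94, 11.89, 12.04 and 12.02 in control, 11.62, 12.07, 12.06 and 11.79 in Met-fed and 11.11, 11.31, 11.35 and 11.28 in L-NAME. The L-NAME hearts were the lowest 4 of 13, with a difference from control of -0.72 ± 0.09 log2 units (SE; adjusted p = 4.85e-06), which stayed lower and called at -0.19 to -1.14 under the other scalings. The second probe set (1370426_a_at) was lower by -0.45 ± 0.07 (adjusted p = 8.19e-05), a call lost after spike-in centring (-0.05).

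The remaining Atp2a2 probe sets went the other way. The third (1398862_at) read 8.01, 7.46, 7.36, 7.59 and 7.15 in control, 8.05, 8.02, 7.93 and 7.83 in Met-fed and 8.52, 8.56, 8.50 and 8.21 in L-NAME. Each L-NAME heart was above each other heart, by 0.93 ± 0.14 log2 units against control (adjusted p = 4.38e-05). The fourth (1375164_at) was 3.89-fold higher at 1.96 ± 0.29 (adjusted p = 3.3e-05), and both were higher and called under the 3 other scalings. The fifth (1391771_at), the dimmest, differed by 0.90 ± 0.37 and was not called (adjusted p = 0.0558).

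Phospholamban, the brake on the pump, fell on both of its bright probe sets. The brightest (1370157_at) read 11.82, 11.90, 11.76, 11.89 and 11.92 in control, 11.55, 11.88, 11.84 and 11.69 in Met-fed and 11.13, 11.27, 11.29 and 11.21 in L-NAME. No L-NAME heart reached any other heart, and the difference from control was -0.63 ± 0.07 log2 units (SE; adjusted p = 1.99e-06), lower and called at -0.11 to -1.06 under the other scalings. The second (1388876_at) was lower by -0.34 ± 0.08 (adjusted p = 0.00142), but its direction turned after quantile normalization (0.19, called) and spike-in centring (0.06, not called). The third (1384689_at), a dim probe set, differed by 0.07 ± 0.34.

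S100a1, the EF-hand protein that supports the pump and the release channel, was read from 1 probe set (1388456_at). It read 9.47, 9.90, 10.004, 9.69 and 9.84 in control, 9.42, 9.82, 9.62 and 9.55 in Met-fed and 9.46, 9.16, 9.30 and 9.17 in L-NAME. L-NAME replicate 1 and control replicate 1 nearly met, but every L-NAME heart was lower than every control heart. The difference of -0.51 ± 0.11 log2 units (SE; adjusted p = 0.00113) was called under quantile normalization (-0.42) and median centring (-0.93) but not after spike-in centring (-0.10).

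Extrusion was read from Slc8a1, the sodium-calcium exchanger. Its brightest probe set (1372449_at) read 10.55, 10.43, 10.50, 10.40 and 10.29 in control, 10.36, 10.65, 10.62 and 10.55 in Met-fed and 10.33, 10.37, 10.49 and 10.30 in L-NAME. The 3 groups overlapped. The L-NAME difference of -0.06 ± 0.08 log2 units had a 95% interval of -0.22 to 0.10, and its direction depended on the scale, with called values of 0.21 after quantile normalization, -0.49 after median centring and 0.34 after spike-in centring. The second probe set (1370588_a_at), a dim one, differed by 0.69 ± 0.30 (adjusted p = 0.0778).

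Because the scale moved single values, genes and probe sets were also compared within each array, where a common factor cancels. A change that follows the signal does not cancel between a bright and a dim probe set. The median L-NAME change of all probe sets was 0.13 between 7 and 8 log2 units and -0.52 between 11 and 12. The brightest minus the second Ryr2 probe set gave 4.18 to 5.30 log2 units in control, 4.02 to 4.71 in Met-fed and 1.76 to 2.38 in L-NAME. For Casq2 the same difference was 3.03 to 3.64, 2.77 to 3.55 and 1.03 to 1.20. For the brightest and the third Atp2a2 probe sets it was 4.01 to 4.88, 3.57 to 4.13 and 2.59 to 3.07. The gap between the probe sets was narrower in all 4 L-NAME hearts than in any other heart for these 3 genes. For the bright Pln pair it was 0.08 to 0.17 in control, 0.03 to 0.07 in Met-fed and -0.22 to -0.12 in L-NAME, and the 3 groups did not overlap. Averaging all probe sets of a gene therefore gave changes of the opposite sign, 0.53 for Atp2a2, 0.70 for Ryr2 and 0.51 for Casq2. These pairs were chosen after their values were seen, and the positions of the probes in the transcripts were not used here.

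**Figure D2:**
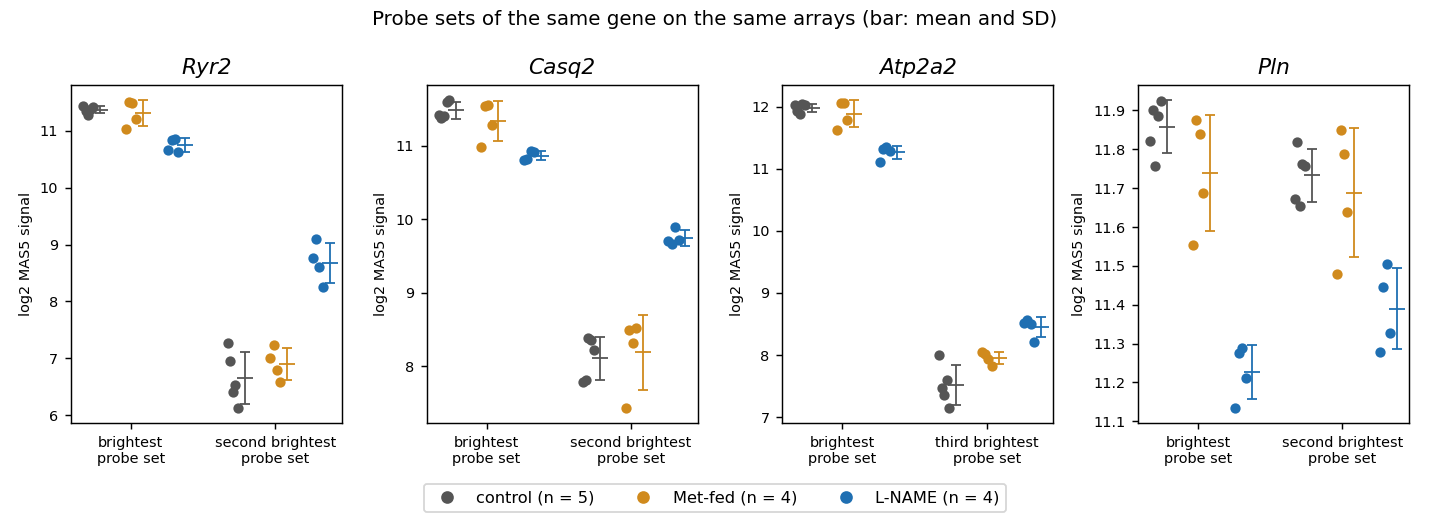
Log2 MAS5 signal on each array for the brightest and another probe set of Ryr2, Casq2, Atp2a2 and Pln, with group mean and SD; levels of different probe sets are not comparable, so only the spread between groups within a probe set is to be read. L-NAME points lie lowest on the left and highest on the right for Ryr2, Casq2 and Atp2a2, and below every control point on both sides for Pln.

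The same split was common among bright genes on these arrays. Of 427 genes with several probe sets and a brightest one of at least 10 log2 units, 289 had the brightest called lower in L-NAME, and 191 of those (66.1%) had another probe set called higher. The change also followed the signal over the whole array. Between 11 and 12 log2 units, where the brightest Atp2a2, Ryr2, Pln and Casq2 probe sets lie, 91.5% of 318 probe sets were called lower and 0.943% higher, with a median change of -0.52 and a 10th to 90th percentile range of -0.79 to -0.21. The 4 bright members lay within that range. Between 10 and 11 the median was -0.32 and 61.2% were called lower, and Slc8a1 at -0.06 lay in the upper part of a range of -0.87 to 0.20. Between 7 and 8 the 90th percentile was 1.16, which the second Ryr2 probe set exceeded and the third Atp2a2 probe set (0.93) did not. Between 8 and 9 it was 0.96, which the second Casq2 probe set exceeded, and between 4 and 5 it was 1.76, which the fourth Atp2a2 probe set (1.96) exceeded. S100a1 at -0.51 lay within the range of -0.84 to 0.57 between 9 and 10. Cacna1c at 0.63 stood above the 90th percentile of 0.57 for probe sets between 9 and 10.

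**Figure D3:**
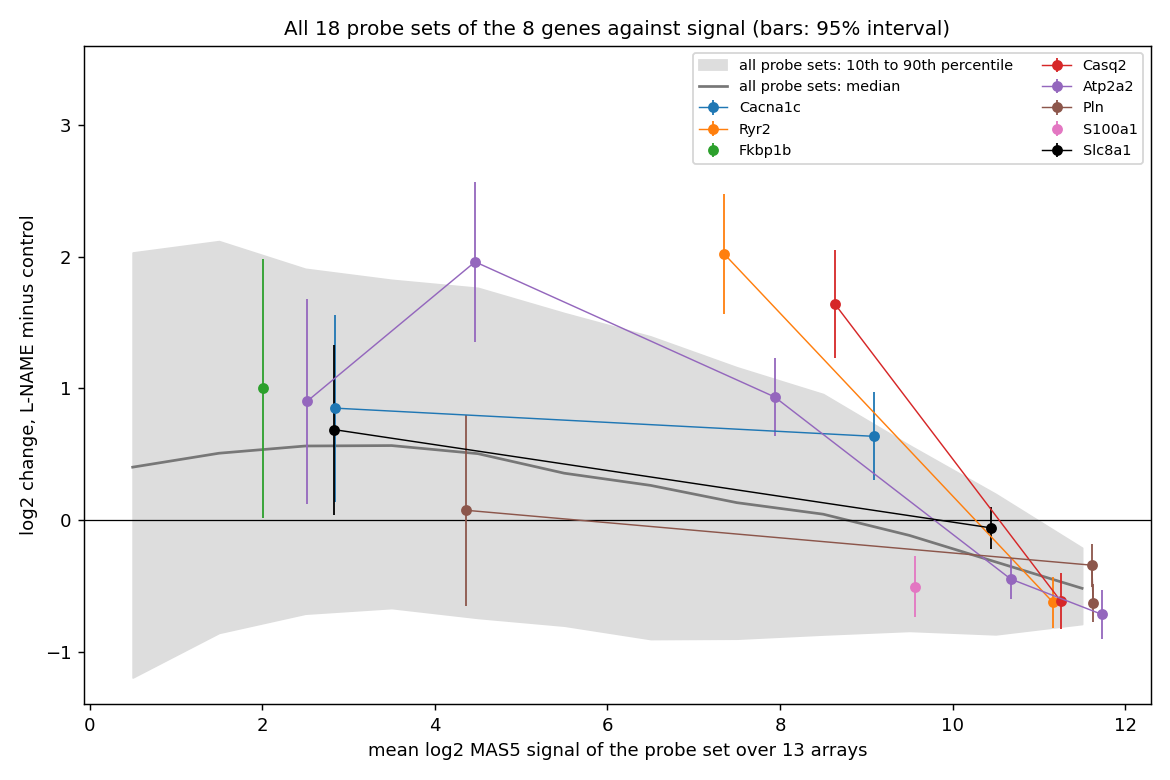
Log2 change of L-NAME against control (vertical axis, with 95% interval) of all 18 probe sets against their mean log2 signal over 13 arrays (horizontal axis), with lines joining probe sets of one gene. The grey line and band give the median and the 10th to 90th percentile of all probe sets in steps of 1 log2 unit, and the median runs from 0.56 at 3 to 4 units down to -0.52 at 11 to 12.

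The balance between members was compared as log2 ratios of the brightest probe sets within an array, which show unequal change and not levels. Where the members differ in signal, as Atp2a2 and Slc8a1 do, a ratio keeps the change that follows the signal. The median L-NAME change was -0.52 in the signal range of Atp2a2 and -0.32 in that of Slc8a1. The Atp2a2 to Slc8a1 ratio, which sets reuptake beside extrusion, was 1.47, 1.50, 1.39, 1.65 and 1.73 in control, 1.27, 1.41, 1.44 and 1.25 in Met-fed and 0.78, 0.94, 0.86 and 0.98 in L-NAME. The L-NAME ratios were the lowest 4, by -0.66 ± 0.08 log2 units against control (SE; exact permutation p = 0.00794) and by -0.45 ± 0.07 against Met-fed (exact permutation p = 0.0286, the smallest for 4 against 4). The Met-fed ratio differed from control by -0.21 ± 0.08 (exact permutation p = 0.0556). The Atp2a2 to Pln ratio, pump beside brake, was 0.04 ± 0.04 in L-NAME and 0.12 ± 0.06 in control (SD; exact permutation p = 0.0556). The Casq2 to Ryr2 ratio differed by 0.01 ± 0.08 (exact permutation p = 0.873), a difference smaller than the spread within either group. The Ryr2 to Fkbp1b ratio differed by -1.63 ± 0.47 (exact permutation p = 0.0159) and rests on the dim Fkbp1b probe set. Over the 12 ratio comparisons the smallest p adjusted by the Benjamini-Hochberg method was 0.0952, so none passed.

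Methionine feeding moved none of the 8 genes past the test. None was called against control in limma (0% of all probe sets called; 3319 of 31042 at an unadjusted p under 0.05), and none of the 8 brightest probe sets had an unadjusted p under 0.05. The differences were -0.10 ± 0.09 log2 units for Atp2a2, -0.07 ± 0.09 for Ryr2, -0.12 ± 0.07 for Pln, -0.14 ± 0.10 for Casq2, -0.18 ± 0.11 for S100a1, 0.11 ± 0.08 for Slc8a1 and 0.04 ± 0.16 for Cacna1c (SE). The 95% interval for Atp2a2 was -0.28 to 0.09 and that for Ryr2 -0.26 to 0.13, so changes of the size seen in L-NAME lay outside them. After spike-in centring the differences of Atp2a2, Ryr2, Pln and Casq2 turned to between 0.03 and 0.11, and that of Cacna1c turned to -0.02 after median centring. Fkbp1b differed by 0.96 ± 0.46 (adjusted p = 0.482).

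Among the other probe sets in the Met-fed comparison, 2 of 10 had an unadjusted p under 0.05 and neither was called. The third Atp2a2 probe set differed by 0.44 ± 0.14 log2 units (adjusted p = 0.314), with control replicate 1 inside the Met-fed range. The second Slc8a1 probe set read 2.97, 2.31, 3.09, 3.39 and 2.93 in control and 1.73, 2.25, 1.71 and 1.94 in Met-fed, a difference of -1.03 ± 0.30 (adjusted p = 0.294). Its groups did not overlap, which held for 1 of the 18 member probe sets and 2.89% of all probe sets. Met-fed replicates 1 and 4 read lower than replicates 2 and 3 on the brightest Atp2a2, Ryr2, Pln, Casq2 and Cacna1c probe sets, so the SD of this group exceeded that of control for each of these genes. The same arrays, replicates 1 and 4, had lower spike-in means (10.02 and 10.04 log2 units, against 10.27 and 10.23) and higher median signals (29.2 and 29.0, against 26.8 and 25.8).

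Between the treatments, L-NAME differed from Met-fed much as from control, and the L-NAME arrays are shared by both comparisons. Of the 8 genes 6 were called, 5 lower and 1 higher, against 40.3% of all probe sets, 14.9% lower and 25.4% higher, and 4 of 8 did not overlap, against 39.6%. Between 11 and 12 log2 units, where the brightest Atp2a2, Ryr2, Pln and Casq2 probe sets lie, 87.1% of 318 probe sets were called lower. Atp2a2 was lower by -0.62 ± 0.09 log2 units (adjusted p = 5.39e-05), Ryr2 by -0.56 ± 0.10 (0.000241), Pln by -0.51 ± 0.07 (4.35e-05) and Casq2 by -0.47 ± 0.11 (0.002), and Cacna1c was higher by 0.60 ± 0.17 (0.00907). The Cacna1c groups overlapped, and its call was lost after median centring (0.23). After quantile normalization 3 of the 8 were called, with Pln (-0.08), Casq2 (-0.09) and S100a1 (-0.27) lost. The S100a1 difference of -0.33 ± 0.11 (adjusted p = 0.0312) was also lost when any of 5 arrays was left out, Met-fed replicates 2 and 3 and L-NAME replicates 2, 3 and 4, at -0.26 to -0.34. Slc8a1 differed by -0.17 ± 0.08 (adjusted p = 0.107), which was called lower after median centring (-0.54) and turned after quantile normalization (0.07) and spike-in centring (0.06). By the brightest probe sets, as scaled by the authors, L-NAME lay below Met-fed and control for Atp2a2, Ryr2, Pln and Casq2. Met-fed and control were not apart beyond their spread. Other probe sets did not all keep this order. Against Met-fed, 1375164_at of Atp2a2 (2.19), 1382775_at of Ryr2 (1.77) and 1387401_at of Casq2 (1.56) were called higher. Of the 10 other member probe sets, 8 were called in that comparison, 6 higher and 2 lower. The lower call of 1388876_at of Pln (-0.30) turned to a higher call after quantile normalization (0.17). For Cacna1c the mean was highest in L-NAME, with a call that depended on the scale.

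The members also varied together among hearts of one group. Over the 13 arrays, deviations from the group means of the brightest Atp2a2 probe set followed those of Ryr2 (Pearson r = 0.93), Pln (0.93) and Casq2 (0.90), and Slc8a1 followed Cacna1c (0.83). S100a1 with Atp2a2 gave 0.08 and Fkbp1b with Atp2a2 gave -0.15. Probe sets of the same gene were not always closer than probe sets of different genes. The brightest and second gave 0.96 for Pln and 0.90 for Atp2a2, but 0.26 for Ryr2 and 0.24 for Slc8a1. These values describe 13 arrays that share their scaling and are not tested. Met-fed replicates 1 and 4, which stood apart in spike-in mean and median signal, contribute to the shared spread.

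**Figure D4:**
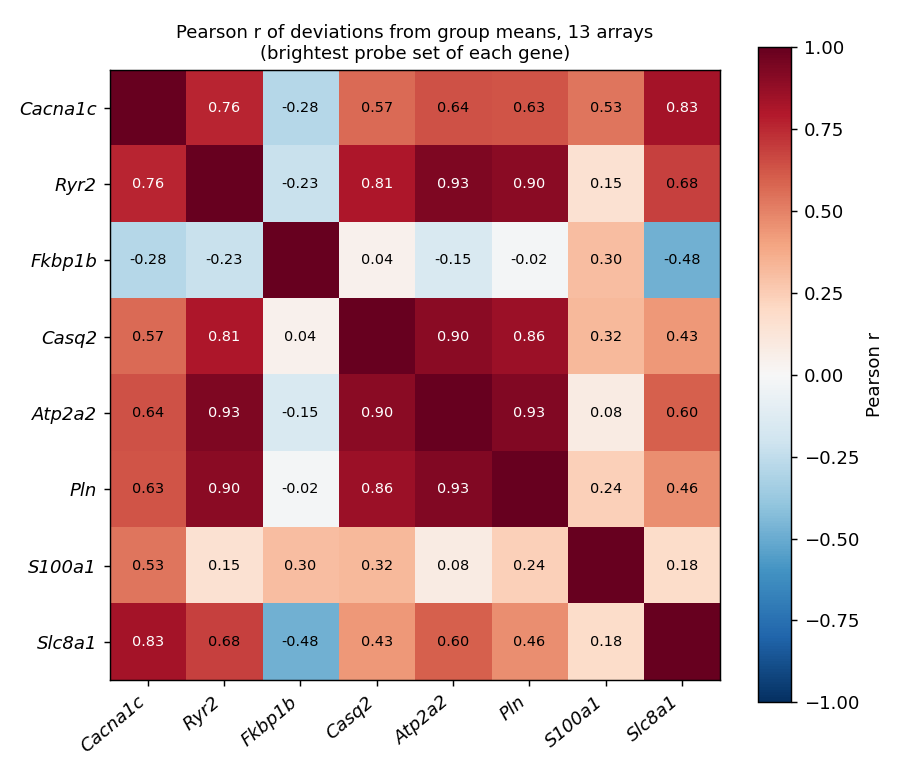
Pearson r between the brightest probe sets of the 8 genes, computed over 13 arrays from deviations from each group's mean; rows and columns are genes and color runs from -1 to 1. Atp2a2, Ryr2, Pln and Casq2 form a block at 0.81 to 0.93, and Fkbp1b and S100a1 stand outside it.

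The brightest probe sets of 9393 genes were compared by this measure, a number that includes the members with a signal of at least the median. Outside the members, the genes closest to Atp2a2 were Ndufa9 (r = 0.98), a subunit of respiratory complex I, Vdac1 (0.97), the outer membrane channel, Cox6c and Cox7b (0.97 each), subunits of cytochrome oxidase, and Lpl (0.97), lipoprotein lipase. Besides Atp2a2 itself 70 genes exceeded 0.9, Ryr2 and Pln among them. Those closest to Ryr2 were Acsl1 (0.97), which activates fatty acids, Grsf1 (0.97), an RNA-binding protein, Ndufa9 (0.96), Atp5pb (0.95), a subunit of ATP synthase, and Sh3kbp1 (0.95), an adaptor protein. Against control the L-NAME change was -0.41 ± 0.08 log2 units for Ndufa9 and -0.70 ± 0.08 for Cox6c, but 0.09 ± 0.07 for Atp5pb, which was not called. Their brightest probe sets all lay at high signal, in the range where most probe sets were lower in L-NAME.

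A wider list of calcium handling genes was read in the same way, of which 56 of 64 had a probe set of their own. In L-NAME against control 26 of 56 were called, 12 higher and 14 lower, near the 45.7% of all probe sets, and the median change was -0.11 against 0.22 over all probe sets. These medians were not matched for signal. That of all probe sets ran from 0.50 between 4 and 5 log2 units to -0.32 between 10 and 11. By role, 4 of 13 entry genes were called and all 4 were higher, 7 of 14 release and junction genes were called (2 higher, 5 lower), 1 of 5 store genes (lower), 7 of 11 uptake genes (3 higher, 4 lower), 3 of 7 extrusion and sodium genes (2 higher, 1 lower), 3 of 4 mitochondrial genes (1 higher, 2 lower) and 1 of 2 store-operated entry genes (lower). Of the 12 called higher, 9 kept their direction and 4 their call under quantile normalization, median centring and spike-in centring together. Of the 14 called lower, 10 kept their direction and 3 their call. The 7 genes called under every scaling were Cacna2d1, Atp2a3, Cav3 and Camk2g, all higher, and Fxyd1, Calm2 and Itpr3, all lower.

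Cacna2d1, the auxiliary subunit that carries the L-type channel to the membrane, had the smallest p of the list. It read 6.81, 7.09, 6.67, 6.71 and 6.33 log2 units in control, 7.33, 7.13, 6.73 and 7.15 in Met-fed and 8.42, 8.51, 8.59 and 8.23 in L-NAME. The L-NAME hearts stood above all others, at 3.29-fold control or 1.72 ± 0.15 log2 units (adjusted p = 1.97e-07). Cav3, muscle caveolin, was 1.81-fold higher, and Mcu, the pore of the mitochondrial uniporter, 1.46-fold, a call lost after median centring (0.12).

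Fxyd1, phospholemman, which restrains the sodium pump, read 10.97 to 11.17 in control, 10.85 to 11.23 in Met-fed and 10.18 to 10.34 in L-NAME. All L-NAME hearts were below all others, by -0.82 ± 0.08 log2 units against control (adjusted p = 4.87e-07). The Ryr2 regulators Sri (sorcin, -0.55 ± 0.06) and Calm2 (a calmodulin gene, -0.73 ± 0.12) were lower, as were Tmem38b, a store potassium channel (-0.48 ± 0.08), and the phosphatase subunits Ppp1cc (-0.56 ± 0.07) and Ppp1ca (-0.37 ± 0.06). After spike-in centring the calls of Sri (-0.14), Tmem38b (-0.07) and Ppp1cc (-0.16) were lost and Ppp1ca turned to 0.04. A second Sri probe set was called higher (0.32 ± 0.11), and so was a second Tmem38b probe set (1.17 ± 0.21).

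Isoforms of the members that other tissues use were read as well. Atp2a3, a SERCA isoform of non-muscle cells, read 7.97 to 8.15 in control and 8.82 to 9.18 in L-NAME, and was 1.95-fold higher (adjusted p = 4.53e-05). Ryr3 was lower by -0.85 ± 0.28 log2 units (adjusted p = 0.0187), a call lost after spike-in centring (-0.45). Ryr1 (0.31 ± 0.28) and Casq1 (0.76 ± 0.35, adjusted p = 0.0903), the skeletal muscle forms, were not called, and the direction of Ryr1 turned after quantile normalization (-0.19) and median centring (-0.11). Sln, sarcolipin, a pump inhibitor of atrium and skeletal muscle, ranged from 4.26 to 8.91 within the L-NAME group alone, with a difference of -0.38 ± 1.13. Atp2a1 exceeded the bacterial controls on 11 arrays and Slc8a2 on 1, Slc8a3 did so on none, and none of these was called.

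In Met-fed against control none of the 56 genes was called by limma (0% of all probe sets), and 7 had an unadjusted p under 0.05, beside 3319 of all 31042 probe sets. They were Rrad, Camk2b, Micu2, Cacnb4, Cacna1s, Cacna2d1 and Camk2g, of which Cacnb4 exceeded the bacterial controls on 1 array and Cacna1s on none. Rrad, a small GTPase that restrains the L-type channel, read 8.61 to 8.83 in control and 8.99 to 9.10 in Met-fed, a difference of 0.33 ± 0.09 log2 units with no overlap (adjusted p = 0.281). Groups did not overlap for 3 of the 56 genes and for 2.89% of all probe sets. In L-NAME against Met-fed 23 of 56 were called, 9 higher and 14 lower, against 40.3% of all probe sets, and Fxyd1 (-0.83 ± 0.08) and Cacna2d1 (1.35 ± 0.16) had the smallest p values.

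**Figure D5:**
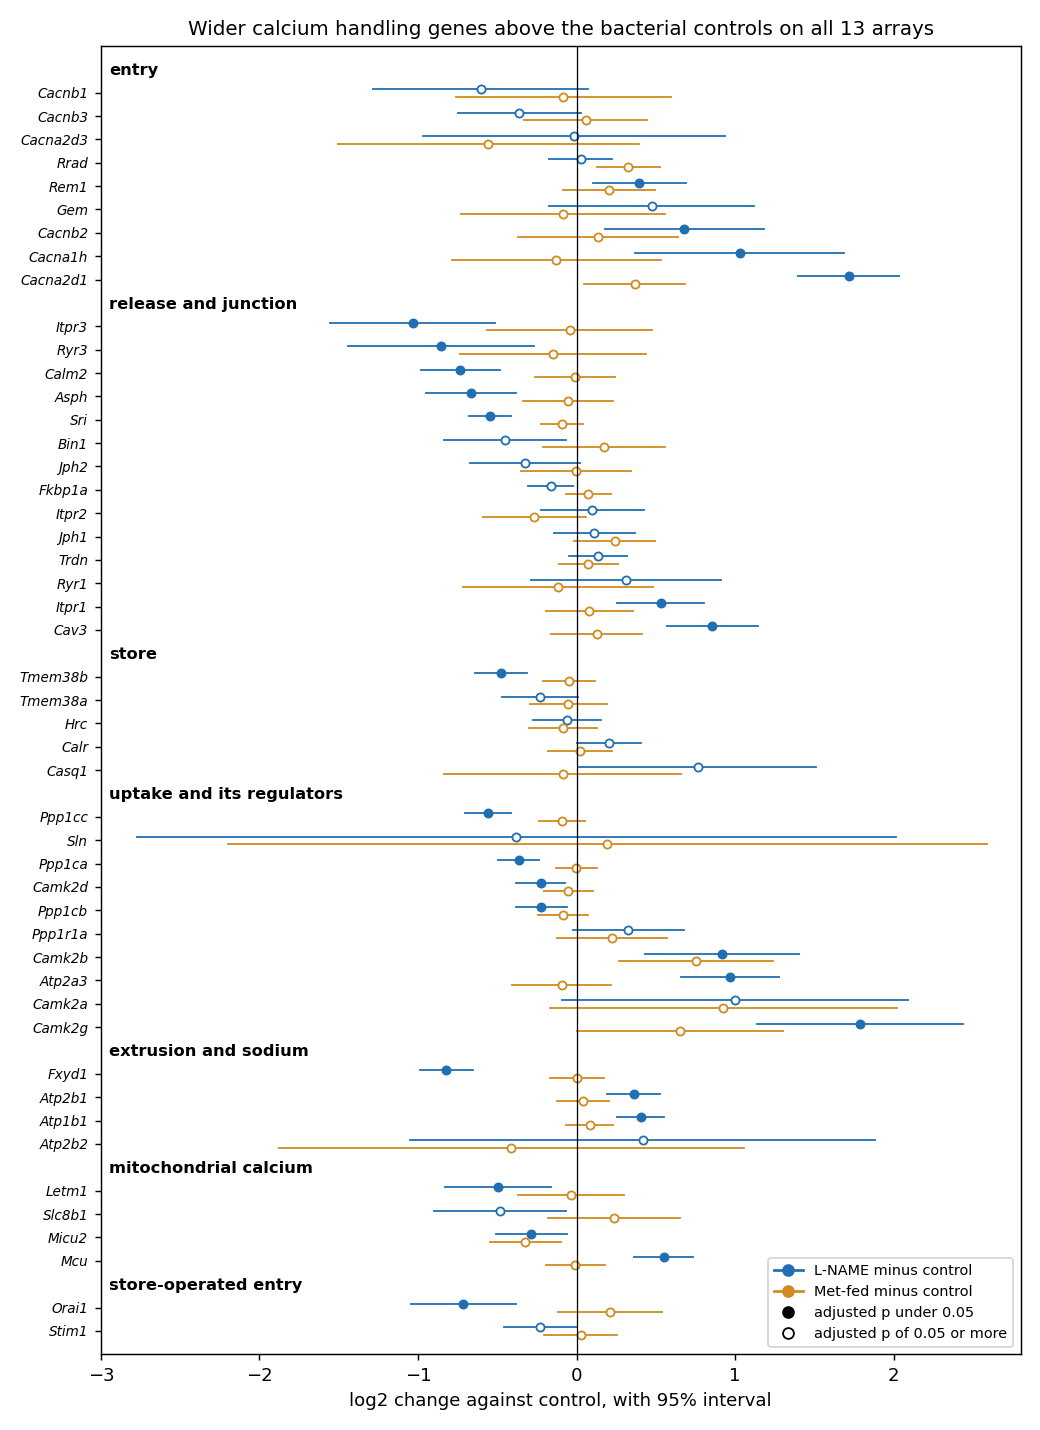
Log2 change against control with 95% interval for the 48 genes of the wider list whose brightest probe set exceeded the bacterial controls on all 13 arrays, ordered by role, for L-NAME (blue) and Met-fed (orange); filled points have an adjusted p under 0.05. Filled points occur for L-NAME alone, at both signs, with Cacna2d1 at 1.72 and Fxyd1 at -0.82.

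Cell markers moved beside the members. Of the 6 cardiomyocyte genes, Myh6 (-0.77), Tnnt2 (-0.51), Tnni3 (-0.62), Myl2 (-0.43) and Mybpc3 (-0.71) were called lower in L-NAME against control, and Ttn (-0.30) was not called. The called ones lay between 11 and 12 log2 units, where 91.5% of all probe sets were called lower. Their changes were within the 10th to 90th percentile range of -0.79 to -0.21 for that signal. Summed endothelial markers, 4 of 5 measured, were 4943 to 5766 in control and 3477 to 3949 in L-NAME. Summed leukocyte markers, 5 of 5, were 4064 to 4337 and 2937 to 3308. Ptprc (-0.38), Cd68 (-0.84), Csf1r (-0.43) and Cd74 (-0.40) were called lower, and Cd3e (1.09) was called higher. Summed fibroblast markers, 4 of 4, were 6045 to 8060 and 5657 to 7076, with Pdgfra (-0.57) and Dcn (-0.62) called lower and Col1a1 (0.53) and Col3a1 (0.32) not called. Summed smooth muscle markers, 4 of 4, were 249 to 561 in control and 359 to 1067 in L-NAME, with Acta2 (1.82) and Tagln (1.45) called higher, Myh11 (-0.59) called lower and Cnn1 (0.58) not called. Summed skeletal muscle markers, 8 of 8, were 2757 to 3113 and 3144 to 3339. Of these only Acta1 was called (0.64), and Ckm (-0.09), Tnni2 (0.33), Tnnt3 (0.23) and the rest were not. The sum rests mostly on Ckm and Acta1, with mean log2 signals of 10.83 and 9.86, while the other listed genes lay at 6.98 or lower. Whether the samples held skeletal muscle was not tested. Myh4, the adult fast myosin, was under the bacterial controls on every array. Atrial markers, 4 of 4, summed to 1020 to 2372 in control, 1361 to 6634 in Met-fed and 1301 to 3841 in L-NAME. The part of these markers in the member changes was not tested.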

How the data were processed

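Left ventricle RNA of 13 rats was labelled from 6 ug total RNA and hybridized to 1 array each. The intensity values deposited by the authors were MAS5 signals on a linear scale, per the labels, with no version given, and all arrays shared a mean of 150 once the 2% highest and 2% lowest values were trimmed. The paper's variance stabilization was left out, because no settings for it are given in the sources used here. The number of arrays limits the precision.

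Of 31099 probe sets, 57 controls were left out and 31042 were tested. Probe sets were named from GEO's platform annotation: 20826 had 1 symbol, 436 several and 9780 none, and all 18 member probe sets matched RefSeq (GRCr8) by Entrez ID. Log2 signals were fitted in limma 3.58.1 (R 4.3.3) with 1 coefficient per group over all 13 arrays, a variance trend with signal and Benjamini-Hochberg adjustment over all probe sets at 0.05. Single values and ratios used exact permutation tests (2-sided). No filter on low signals and no pseudocount were used in the reported values. Figures were drawn with matplotlib 3.10.9. The script was tested on simulated data.

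Named genes were all 8 members with every probe set, per comparison the 10 genes of the wider list with the smallest p, the isoform genes, and the 5 genes most correlated with Atp2a2 and Ryr2. Camk2g and Itpr3, and genes named in the Met-fed comparison or among markers, were named after their values were seen. The members and lists were chosen with earlier results of these data known. Replicate numbers did not pair the arrays. Alternatives were median centring of each array, quantile normalization, an added offset of 16 or 50, leaving out signals under the median, only the groups compared, no variance trend, t-tests per probe set, a replicate block, the mean of all probe sets of a gene, each array left out and, added after the data were seen, centring on 18 spike-in probe sets.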

Additional observations from a re-analysis of the deposited data

Results flagged for a closer look

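Of 66 groups of 4 or 5 values examined among the members' probe sets and ratios, 3 held an array far from the rest of its group, and chance flags about 1 in 20 such groups. The third Atp2a2 probe set (1398862_at) read 8.21 on L-NAME replicate 4 and 8.50 to 8.56 on the other L-NAME arrays. The third Pln probe set (1384689_at) read 2.92 on control replicate 1 and 4.54 to 5.03 on the other control arrays. The log2 Ryr2 minus Fkbp1b ratio was 9.88 on Met-fed replicate 2 and 8.59 to 8.68 on the other Met-fed arrays, where the Fkbp1b probe set itself was dim.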

How the results depend on the processing

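In L-NAME against control, 5 to 7 of the 8 genes were called under every alternative and 6 with any array left out, and the wider list kept 20 to 32 calls. The genes behind the count changed with the scale. Slc8a1 was called higher after quantile normalization and spike-in centring but lower after median centring (-0.49). Cacna1c was lost after median centring (0.21). After spike-in centring S100a1 was lost (-0.10) and Fkbp1b was called (1.40). In Met-fed against control no member was called under any alternative. Taking the mean of all probe sets of a gene turned L-NAME against control to 0.53 for Atp2a2, 0.70 for Ryr2, 0.51 for Casq2 and 0.31 for Slc8a1, and L-NAME against Met-fed to 0.48, 0.61, 0.54 and 0.77. It turned Met-fed against control to 0.0424 for Atp2a2, 0.0896 for Ryr2, -0.46 for Slc8a1 and -0.10 for Cacna1c. These values average the opposed probe sets of each gene. Quantile normalization turned Slc8a1 to 0.21 against control and 0.0746 against Met-fed, and spike-in centring to 0.34 and 0.0580. In Met-fed against control, spike-in centring turned Atp2a2 to 0.0778, Ryr2 to 0.11, Pln to 0.0559 and Casq2 to 0.0314, and Cacna1c turned to -0.0194 with median centring. Fkbp1b in L-NAME against Met-fed turned to -0.45 with quantile normalization and -0.32 with median centring. The cause was not tested.

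Members called in L-NAME against Met-fed dropped from 6 to 3 under quantile normalization and under the t-test for unequal variances. Ratios are judged here by their unadjusted exact permutation p alone; none passed after adjustment over the 12. That p fell under 0.05 for Atp2a2 to Slc8a1 in Met-fed against control under quantile normalization (-0.17), and for Ryr2 to Fkbp1b in L-NAME against Met-fed with offsets of 50 (-0.55) and 16 (-0.56). Under quantile normalization Ryr2 to Fkbp1b no longer had it against control (-0.82) and turned to 0.24 against Met-fed.

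With single arrays left out, Met-fed against control ran from -0.13 to 0.0270 for Ryr2 (turned without Met-fed replicate 1) and from -0.11 to 0.20 for Cacna1c, and L-NAME against Met-fed from -0.20 to 0.21 for Fkbp1b. Slc8a1 in L-NAME against Met-fed was called without Met-fed replicate 1 (-0.23). The Atp2a2 to Pln ratio ran from -0.11 to -0.0667 in L-NAME against control, from -0.0026 to 0.0480 in Met-fed against control and from -0.14 to -0.0845 in L-NAME against Met-fed. The Atp2a2 to Slc8a1 ratio in Met-fed against control ran from -0.25 to -0.16, Casq2 to Ryr2 in L-NAME against control from -0.0442 to 0.0557, and Ryr2 to Fkbp1b in Met-fed against control from -1.33 to -0.67.

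The replicate block turned Cacna1c in Met-fed against control to -0.0273, left 23 wider-list calls in L-NAME against control, and changed no other call of a member. Replicate numbers did not pair the arrays: over 12 same-number pairs r ran from -0.21 to 0.24.

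Of probe sets called in L-NAME against control, 62.8% were higher, and 50.1% after quantile normalization, 34.9% after median centring and 85.8% after spike-in centring. The median change of all probe sets was 0.22, -0.01, -0.21 and 0.62. Against Met-fed the shares were 63.1%, 49.5%, 34.4% and 79.6%.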
